A study of Mus musculus with 10 samples.

Results

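The promoter windows described here were those in which the CpG methylation level of mature oocytes from 2-month wild-type mice lay at least 20 percentage points above that of 2 other groups of oocytes at once. The other groups were oocytes of 11-month wild-type mice and of 2-month Tet2 knockout mice. The rule kept 769 of the 40537 nuclear windows listed for all 3 groups (1.9%), and they are called 2-month-high windows below. The opposite rule, 2-month wild type at least 20 points below both, kept 606 windows (1.49%), which are called 2-month-low windows and serve as the comparison. A window can be 2-month-low only if both other groups are at 20% or more. In 23135 of the 40537 windows both lay under 5%, so these could not be 2-month-low. Taken alone, 11-month WT lay at least 20 points below 2-month WT in 1120 windows (2.76%) and Tet2KO in 1307 windows (3.22%), and both comparisons share the 2-month WT values. Levels chose these windows, so their differences between groups are given as a description, without a test.

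All cells were metaphase II oocytes, the mature unfertilised eggs, of strain C57BL6/129. The labels list 3 libraries of 11-month wild type (11-month WT), 3 libraries of 2-month Tet2 knockout (Tet2KO) and 4 libraries of 2-month wild type (2-month WT). They do not say whether Tet2 was deleted in the whole animal or how many females gave oocytes, and they conflict on the input, since the design names 10 oocytes per sample and the protocol a single oocyte. The deposited tables give 1 pooled value per window and group, which leaves no measure of the spread between libraries, and all intervals cover counting error only.

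A CpG is a cytosine followed by a guanine, and its cytosine can carry a methyl group. Most mammalian promoters dense in CpGs stay unmethylated, while oocytes methylate the bodies of transcribed genes and the maternal imprints, which the offspring inherits. Tet2 is a dioxygenase that oxidises 5-methylcytosine, and bisulfite sequencing, used here, does not separate the methylated from the hydroxymethylated base.

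Each window spans 2000 bp, centred on an annotated transcript start. Its level is the methylated share of all CpG calls in it, where a call is 1 CpG read once. The median 2-month-high window held 144 calls in 11-month WT, 52 in Tet2KO and 89 in 2-month WT, against 245, 79 and 131 over all shared windows. If a window of that median depth had no methylated call, its level could still be as high as 2.08%, 5.77% and 3.37%, in the same order. Of 16 imprinted genes listed for a maternal methylation mark, 10 had a window that reached 80% in 11-month WT, 9 in Tet2KO and 9 in 2-month WT. Whether each window covers the mark of its gene was not checked, so a low window is not read as a lost imprint. In 10 of the 16 genes 2-month WT was above both other groups. Igf2r, Grb10 and Inpp5f, 3 of these, had 8.62%, 2.38% and 1.04% in 2-month WT, and the intervals of the Grb10 and Inpp5f differences included 0. The other way lay Gnas, with 10.2% in 11-month WT, 5.26% in Tet2KO and 2.47% in 2-month WT, and Peg10, with 81.9%, 83.1% and 66.7%. The 4 paternally methylated imprinted genes, which should be low in oocytes, had medians of 1.97%, 1.42% and 2.11%, and Meg3, the highest of them in 2-month WT, had 6.67% in 11-month WT, 2.22% in Tet2KO and 23.4% in 2-month WT. Dlk1 and Rasgrf1 had 0 of 445 and 0 of 223 calls methylated in 2-month WT (up to 0.674% and 1.35%), and 1.61% and 2.33% in 11-month WT. The part of DNA from other cells in the 2-month-high windows was not tested.

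The promoters of the genes on which the results turn are printed here to show how CpG-poor and CpG-dense sequences alike were found among the 2-month-high windows. They run from 250 bases before to 50 bases after the gene start (RefSeq, GRCm38.p6), 5′ to 3′ on the strand of the gene, with each CpG in capitals. Prm1, Prm2, Prm3 and Tnp2 share a cluster of sperm genes on chromosome 16, Hspa1b is the inducible heat shock gene, Rpl41 encodes a ribosomal protein, Dnm3 had few calls, and Rap1gap2 was already partly methylated in the other groups.
Prm1 (chr16:10796774-10797073, minus strand): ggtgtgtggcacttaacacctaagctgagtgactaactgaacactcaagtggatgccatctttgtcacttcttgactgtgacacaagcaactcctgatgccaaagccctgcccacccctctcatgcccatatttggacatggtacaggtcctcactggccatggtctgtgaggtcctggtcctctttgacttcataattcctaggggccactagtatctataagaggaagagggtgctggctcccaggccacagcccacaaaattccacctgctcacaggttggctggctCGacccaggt
Prm2 (chr16:10792056-10792355, minus strand): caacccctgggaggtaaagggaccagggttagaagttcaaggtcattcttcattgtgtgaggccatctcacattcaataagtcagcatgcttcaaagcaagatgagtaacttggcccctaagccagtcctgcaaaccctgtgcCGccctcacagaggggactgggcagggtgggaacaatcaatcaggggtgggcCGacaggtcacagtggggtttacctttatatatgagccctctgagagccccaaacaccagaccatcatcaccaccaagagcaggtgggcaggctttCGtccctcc
Prm3 (chr16:10790865-10791164, minus strand): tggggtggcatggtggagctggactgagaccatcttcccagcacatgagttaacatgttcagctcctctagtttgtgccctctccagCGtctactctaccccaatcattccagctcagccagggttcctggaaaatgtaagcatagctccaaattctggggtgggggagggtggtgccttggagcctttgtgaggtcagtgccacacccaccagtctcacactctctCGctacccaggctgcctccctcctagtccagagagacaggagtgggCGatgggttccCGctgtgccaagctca
Tnp2 (chr16:10788606-10788905, minus strand): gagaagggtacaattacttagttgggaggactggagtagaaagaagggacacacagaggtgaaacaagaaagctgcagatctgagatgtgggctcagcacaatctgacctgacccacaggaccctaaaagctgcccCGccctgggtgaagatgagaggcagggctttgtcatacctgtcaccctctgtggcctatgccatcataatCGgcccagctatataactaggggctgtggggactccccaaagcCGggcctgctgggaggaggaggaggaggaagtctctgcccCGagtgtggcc
Hspa1b (chr17:34959189-34959488, minus strand): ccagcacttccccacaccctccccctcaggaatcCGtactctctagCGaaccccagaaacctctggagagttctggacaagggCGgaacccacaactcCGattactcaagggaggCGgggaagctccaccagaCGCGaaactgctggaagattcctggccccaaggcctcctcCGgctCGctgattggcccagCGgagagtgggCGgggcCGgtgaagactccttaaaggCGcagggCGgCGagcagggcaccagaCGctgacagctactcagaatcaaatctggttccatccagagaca
Rpl41 (chr10:128549119-128549418, minus strand): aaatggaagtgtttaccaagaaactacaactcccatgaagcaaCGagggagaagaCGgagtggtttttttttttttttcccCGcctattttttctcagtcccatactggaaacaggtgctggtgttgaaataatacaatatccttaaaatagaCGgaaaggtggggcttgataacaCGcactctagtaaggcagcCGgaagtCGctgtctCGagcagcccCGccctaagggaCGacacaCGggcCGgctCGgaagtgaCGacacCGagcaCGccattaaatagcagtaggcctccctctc
Dnm3 (chr1:162477985-162478284, minus strand): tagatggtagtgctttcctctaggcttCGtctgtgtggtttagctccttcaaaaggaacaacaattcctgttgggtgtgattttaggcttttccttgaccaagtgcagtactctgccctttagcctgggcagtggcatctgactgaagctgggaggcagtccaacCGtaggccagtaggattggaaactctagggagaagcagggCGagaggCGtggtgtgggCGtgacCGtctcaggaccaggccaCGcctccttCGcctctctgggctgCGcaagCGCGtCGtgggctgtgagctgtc
Rap1gap2 (chr11:74590137-74590436, minus strand): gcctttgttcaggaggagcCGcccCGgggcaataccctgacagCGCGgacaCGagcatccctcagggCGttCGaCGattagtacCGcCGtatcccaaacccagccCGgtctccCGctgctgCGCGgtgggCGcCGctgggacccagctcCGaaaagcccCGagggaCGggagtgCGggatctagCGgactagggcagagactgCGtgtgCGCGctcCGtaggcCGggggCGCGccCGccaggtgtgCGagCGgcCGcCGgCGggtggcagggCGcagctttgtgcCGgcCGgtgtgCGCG
The Prm1 stretch holds 1 CpG in its 300 bases, Prm2 holds 3, Prm3 holds 4 and Tnp2 holds 4. The Hspa1b stretch holds 16, that of Rpl41 16, that of Dnm3 12 and that of Rap1gap2 39.

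The median 2-month-high window had a level of 5.26% in 11-month WT, 4.55% in Tet2KO and 42.4% in 2-month WT. The gap, meaning 2-month WT minus the higher of the other groups and so positive here, had a median of 27.8 points, with quartiles of 23.1 and 36.4 points. The other groups lay within 10 points of each other in 604 of the 769 windows, beside 35955 of the 40537 shared windows. Their median distance from each other was 3.21 points, beside 1.84 points over all shared windows. Because windows of neighbouring transcript starts overlap and share calls, the 769 windows form 576 separate loci.

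The windows were not all unmethylated in the other groups. In 552 windows both other groups lay under 20%, and in 323 of these both lay under 5%. A second class of 147 windows was at 20% or more in both other groups, with medians of 50% in 11-month WT, 45.9% in Tet2KO and 82.6% in 2-month WT. The remaining 70 windows were at 20% or more in 1 of them. The low class had medians of 2.42%, 1.77% and 35.6%, so its pooled level in 2-month WT was mostly partial, and 29 of its 552 windows exceeded 80% there. A pooled level cannot tell partial methylation in each of the 4 libraries from high methylation in only some of them.

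**Figure D1:**
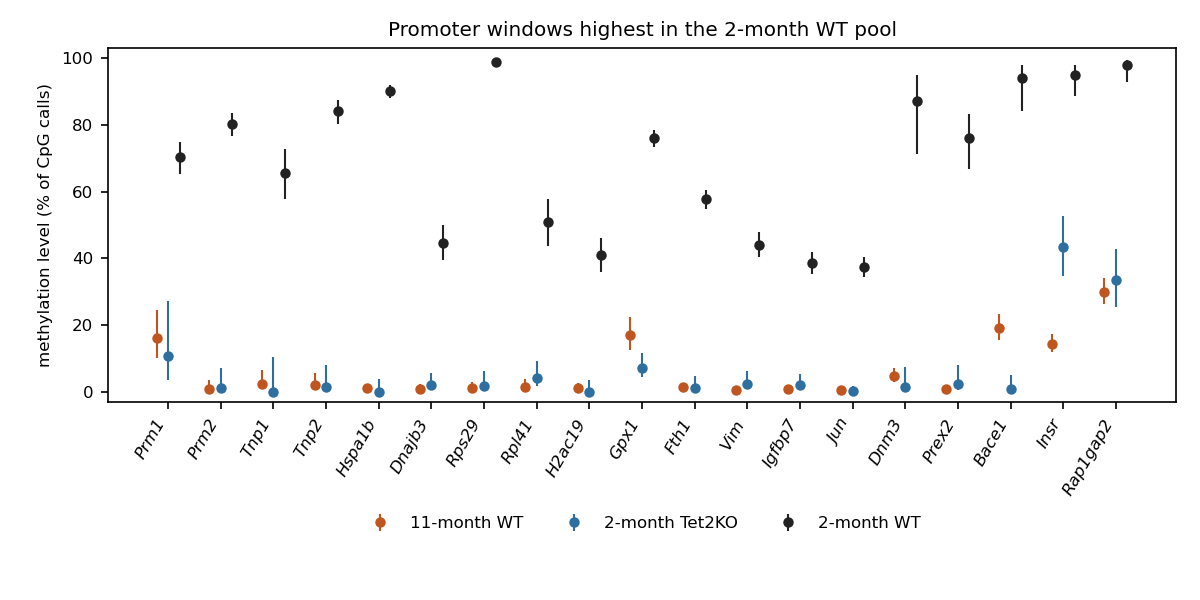
Methylation level in percent of CpG calls for 19 promoters with a 2-month-high window, with 1 point per group and bars for Wilson 95% intervals of the counts. The 2-month WT points lie above both others at each gene, at 37.3% for Jun and 98.9% for Rps29, and the 11-month WT and Tet2KO points of Rap1gap2 start near 29.98% and 33.6%.

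At the threshold the windows passed over gradually. Just inside it lay Timp3, an inhibitor of metalloproteinases, Catsper2, a subunit of the sperm calcium channel, and Ear14, with gaps of 20.1, 20.0 and 20.0 points. Just outside lay Pdpk1, Saraf and Amdhd2 with gaps of 19.96, 19.95 and 19.92 points.

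Genes of sperm chromatin and sperm structure held 2-month-high windows at 13 of 43 genes (30.2%), against 331 of 17392 genes with a named window (1.9%). Over all named genes 2-month-low windows were found at 211 genes (1.21%), and in the sperm list at 1 gene, Gapdhs. Protamines and transition proteins, which replace histones while spermatids condense their DNA, reached 65.6% to 84.2% in 2-month WT. Prm2 (chr16:10791106-10793105) had 0.971% (206 calls) in 11-month WT, 1.33% (75 calls) in Tet2KO and 80.3% (508 calls) in 2-month WT. At Tnp2 (chr16:10787656-10789655) the level was 2.23% (179 calls) in 11-month WT, 1.52% (66 calls) in Tet2KO and 84.2% (411 calls) in 2-month WT. The Prm3 window (chr16:10789915-10791914) showed 0.493% (203 calls) in 11-month WT, 2.17% (46 calls) in Tet2KO and 72.2% (316 calls) in 2-month WT. The 2-month WT level stood far above both others at each of these genes, and the 11-month WT and Tet2KO levels were at or under 2.23%. For Prm2 the 11-month minus 2-month WT difference was -79.3 points (Newcombe 95% interval -82.6 to -74.9), and the Tet2KO minus 2-month WT difference was -79.0 points (Newcombe 95% interval -82.4 to -72.1).

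Prm1 (chr16:10795887-10797886) had 16.2% (99 calls) in 11-month WT, 10.7% (28 calls) in Tet2KO and 70.2% (336 calls) in 2-month WT. The Prm1 levels of the other groups were thus higher than at the neighbouring genes, with 28 calls in Tet2KO behind them. At Tnp1 (chr1:73014910-73016909) the level was 2.36% (127 calls) in 11-month WT, 0 of 33 calls (up to 9.09%) in Tet2KO and 65.6% (154 calls) in 2-month WT. Tnp1 is on chromosome 1, away from the cluster. The Pgk2 window (chr17:40207610-40209609) showed 5.56% (18 calls) in 11-month WT, 6.25% (16 calls) in Tet2KO and 68.2% (22 calls) in 2-month WT. Pgk2 encodes the testis form of phosphoglycerate kinase, and its counts are small. Spesp1 (chr9:62281180-62283179) had 18.1% (105 calls) in 11-month WT, 0 of 96 calls (up to 3.12%) in Tet2KO and 95.8% (24 calls) in 2-month WT. Spesp1 encodes a protein of the sperm equatorial segment, and its 2-month WT level also rests on few calls.

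The other sperm genes reached lower levels in 2-month WT. Odf1, of the outer dense fibres of the tail, had 4.00% in 11-month WT, 4.55% in Tet2KO and 36.2% in 2-month WT. Spaca1, of the acrosome, had 1.46% in 11-month WT, 0 of 40 calls (up to 7.50%) in Tet2KO and 30.8% in 2-month WT. Spata3 had 0.538% in 11-month WT, 6.35% in Tet2KO and 31.9% in 2-month WT. All of them lay at or under 6.35% in both other groups. Tekt5, a tektin of the flagellum, had 0 of 329 calls (up to 0.912%) in 11-month WT, 1.47% in Tet2KO and 24.1% in 2-month WT, and Catsper2, whose window is shared with Pdia3, had 0.755% in 11-month WT, 0 of 118 calls (up to 2.54%) in Tet2KO and 20.8% in 2-month WT. The remaining sperm gene, Hspa1l, is described with the chaperones.

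The 30 sperm genes without a 2-month-high window had medians of 2.61% in 11-month WT, 1.93% in Tet2KO and 5.53% in 2-month WT. Of these 18 lay under 10% in all 3 groups and 6 at 80% or more in all 3. In 11 of the 30 genes 2-month WT was above both other groups, beside 6553 of all 17392 named genes, a similar share. Over the whole list of 43 genes the medians were 2.23%, 1.59% and 13.6%, beside 2.29%, 1.76% and 2.56% over all named genes. The median difference over the list was -2.87 points for 11-month minus 2-month WT and -2.47 points for Tet2KO minus 2-month WT, beside 0 and -0.33 points over all named genes. With at least 50 calls required in each group, 5 of 18 listed genes still held a 2-month-high window, beside 185 of 11921 named genes. Without that limit 6 of 10 listed sperm genes of at most 3000 bp held one, beside 101 of 1758 named genes of that length, and 7 of 33 longer sperm genes did.

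The protamine cluster is the densest group of 2-month-high windows. At chr16:10787656-10797886 each of the 5 shared windows was one, over 10231 bp, in the order Tnp2, Prm3, Prm2, a window without a gene name, and Prm1. The Prm2 and Prm3 windows overlap, and the 5 windows form 3 separate loci.

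**Figure D2:**
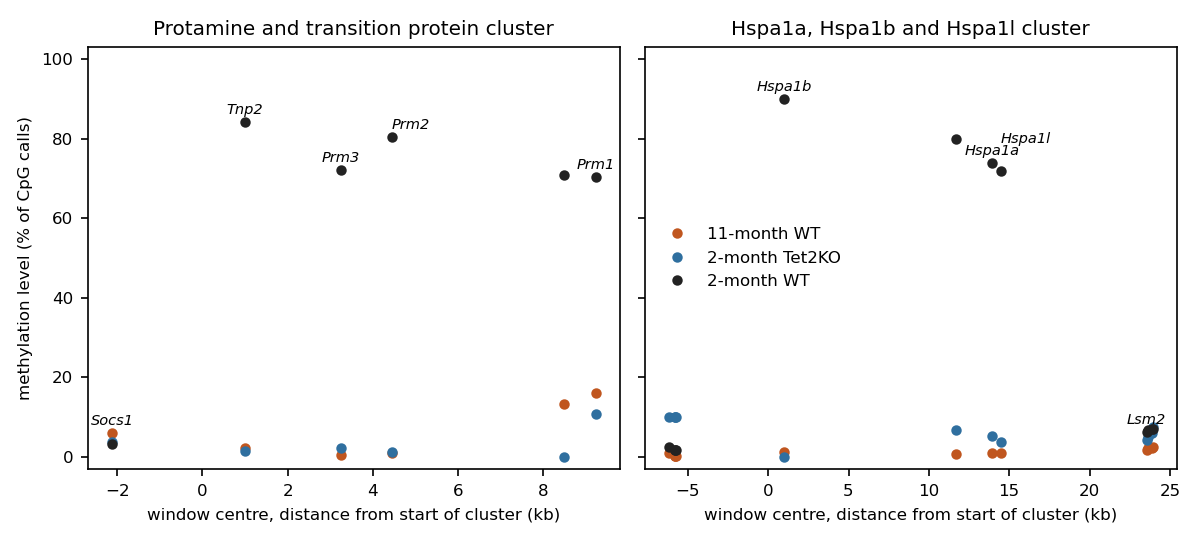
Methylation level in percent of CpG calls against the distance of the window centre from the start of the cluster in kb, for the protamine cluster on chromosome 16 and the Hspa1a cluster on chromosome 17, with 1 point per window and group. The windows of the clusters reach 70.2% to 84.2% at the named sperm genes and 71.9% to 90.1% at the heat shock genes in 2-month WT, while the flanking windows lie at or under 10% in each group.

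Chaperone genes held 2-month-high windows at 8 of 67 genes (11.9%) and a 2-month-low window at 1, Hspb3. Hspa1a and Hspa1b encode the stress-inducible HSP70 proteins and Hspa1l their testis relative. At Hspa1b (chr17:34958239-34960238) the level was 1.19% (586 calls) in 11-month WT, 0 of 98 calls (up to 3.06%) in Tet2KO and 90.1% (916 calls) in 2-month WT. The difference of Hspa1b was -88.9 points (Newcombe 95% interval -90.7 to -86.4) for 11-month minus 2-month WT. The Hspa1a window (chr17:34971157-34973156) showed 1.08% (278 calls) in 11-month WT, 5.26% (19 calls) in Tet2KO and 73.9% (907 calls) in 2-month WT. Hspa1l (chr17:34971703-34973702) had 1.11% (270 calls) in 11-month WT, 3.85% (26 calls) in Tet2KO and 71.9% (750 calls) in 2-month WT. The Hspa1a and Hspa1l windows overlap, and Hspa1a and Hspa1b are near-identical copies, so reads may be assigned to either of them. All 4 shared windows at chr17:34958239-34973702 were 2-month-high, while the nearest window of Lsm2 on the far side had 1.89% in 11-month WT, 4.35% in Tet2KO and 6.38% in 2-month WT.

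Dnajb3 and Dnajb8, DnaJ co-chaperones known from testis, were low outside 2-month WT. At Dnajb3 (chr1:88204783-88206782) the level was 0.785% (382 calls) in 11-month WT, 1.961% (153 calls) in Tet2KO and 44.7% (358 calls) in 2-month WT. The Dnajb8 window (chr6:88221268-88223267) showed 0 of 143 calls (up to 2.10%) in 11-month WT, 2.00% (100 calls) in Tet2KO and 42.0% (143 calls) in 2-month WT. Hspb1, Hspb9 and Hspa5 were the other members. Hspa5 (chr2:34771095-34773094) had 2.45% (774 calls) in 11-month WT, 5.74% (331 calls) in Tet2KO and 33.3% (799 calls) in 2-month WT. Hspa5 encodes the HSP70 of the endoplasmic reticulum, and its level in 2-month WT was among the lower ones of the group. By gene length the chaperones split unevenly, with 6 of 11 genes of at most 3000 bp holding a 2-month-high window and 2 of 56 longer genes. Among all named genes of at most 3000 bp 101 of 1758 held one, and in the classes of longer genes the shares ran from 2.15% down to 1.00%.

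Among cytosolic ribosomal protein genes 6 of 92 (6.52%) held a 2-month-high window. No gene of the list held a 2-month-low one, beside 1.21% of all named genes, a share at which a list of this size would hold few or none. At Rps29 (chr12:69158187-69160186) the level was 1.32% (453 calls) in 11-month WT, 1.79% (112 calls) in Tet2KO and 98.9% (12819 calls) in 2-month WT. The 2-month WT count of Rps29 was out of proportion to the others, with 141 calls per covered position, and the mean over positions, which weighs each CpG alike, gave 42.6% there. Ribosomal protein genes have many processed copies in the genome, so the Rps29 value is uncertain. The Rpl41 window (chr10:128548103-128550102) showed 1.498% (267 calls) in 11-month WT, 4.17% (120 calls) in Tet2KO and 50.8% (197 calls) in 2-month WT. Rplp1 (chr9:61913539-61915538) had 3.66% (410 calls) in 11-month WT, 4.60% (87 calls) in Tet2KO and 36.3% (303 calls) in 2-month WT. Rps9 and Rpl27 also held one. Of the listed ribosomal genes of at most 3000 bp 5 of 38 did, beside 101 of 1758 named genes of that length, and of the longer ones 1 of 54.

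Replication-dependent histone genes, short genes that lack introns, held such windows at 5 of 52 genes (9.62%). Of the listed genes of at most 3000 bp, 4 of 49 did. Among all named genes of up to 1000 bp the share was 7.56%, so the list was near the share of genes of its length. The histone gene H2bc6 held a 2-month-low window. At H2ac19 (chr3:96239277-96241276) the level was 1.26% (475 calls) in 11-month WT, 0 of 102 calls (up to 2.94%) in Tet2KO and 41.0% (349 calls) in 2-month WT. The H4c17 window (chr13:21810746-21812745) showed 3.05% (164 calls) in 11-month WT, 2.44% (41 calls) in Tet2KO and 44.2% (43 calls) in 2-month WT. H2ac6 and H2bc4 share overlapping windows and so form 1 locus, with 23.8% and 24.7% in 2-month WT. By the deposited fraction, the mean over positions, the gap of H2ac6 was 11.8 points, and both genes lay under the threshold. The histone genes have near-identical copies, so these levels are uncertain too. The only antioxidant gene of 35 was Gpx1, a glutathione peroxidase. Gpx1 (chr9:108338276-108340275) had 17.0% (224 calls) in 11-month WT, 7.31% (219 calls) in Tet2KO and 76.0% (1149 calls) in 2-month WT.

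Immediate early genes, which are transcribed within minutes of a stimulus, held 2-month-high windows at 3 of 19 genes (15.8%), namely Jun, Ier5 and Egr1. At Jun (chr4:95051223-95053222) the level was 0.709% (1129 calls) in 11-month WT, 0.338% (296 calls) in Tet2KO and 37.3% (951 calls) in 2-month WT. The Ier5 window (chr1:155098637-155100636) showed 1.88% (904 calls) in 11-month WT, 1.86% (215 calls) in Tet2KO and 29.03% (930 calls) in 2-month WT. Egr1 (chr18:34860207-34862206) had 6.22% (1318 calls) in 11-month WT, 1.78% (394 calls) in Tet2KO and 29.6% (678 calls) in 2-month WT. By the deposited fraction its gap was 19.6 points, under the threshold. Over all 19 genes, the 3 chosen by the rule included, the medians were 1.73% in 11-month WT, 0.84% in Tet2KO and 8.46% in 2-month WT. In 14 of the 19 genes 2-month WT was above both other groups, beside 6553 of all 17392 named genes. The medians and this count are partly set by the choice of the 3 genes, and the other genes were not summarised apart.

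Pluripotency genes gave 1 member of 19, Pou5f1, the transcription factor OCT4. Pou5f1 (chr17:35505018-35507017) had 1.47% (204 calls) in 11-month WT, 0 of 25 calls (up to 12%) in Tet2KO and 30% (130 calls) in 2-month WT. The DNA repair list gave Parp2 alone of 47 genes, and the insulin and mTOR list gave Insr alone of 28. The granulosa and cumulus list gave Cyp17a1 alone of 23, at 22.2% of 27 calls in 2-month WT. Cyp17a1 is counted again with the cytochrome P450 genes, and whether it marks granulosa or cumulus cells was not checked. Solute carriers gave 6 of 292 genes and Zfp zinc finger genes 4 of 307, both shares near the background of 1.9%. Oxidative phosphorylation genes gave 2 of 86, keratins and beta-defensins 2 of 80, cytochrome P450 genes 2 of 41, housekeeping genes 2 of 27 and seminal secretion genes 1 of 5.

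No 2-month-high window was found at 46 proteasome genes, 41 germline and meiosis genes, 23 oocyte-expressed genes, 46 spindle and cohesin genes, 70 developmental regulators or 19 genes of the DNA methylation machinery. At the background of 1.9% of all named genes, lists of this size would hold few such windows or none, so these counts do not set the lists apart. The oocyte-expressed genes had medians of 1.82% in 11-month WT, 0% in Tet2KO and 0.585% in 2-month WT.

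**Figure D3:**
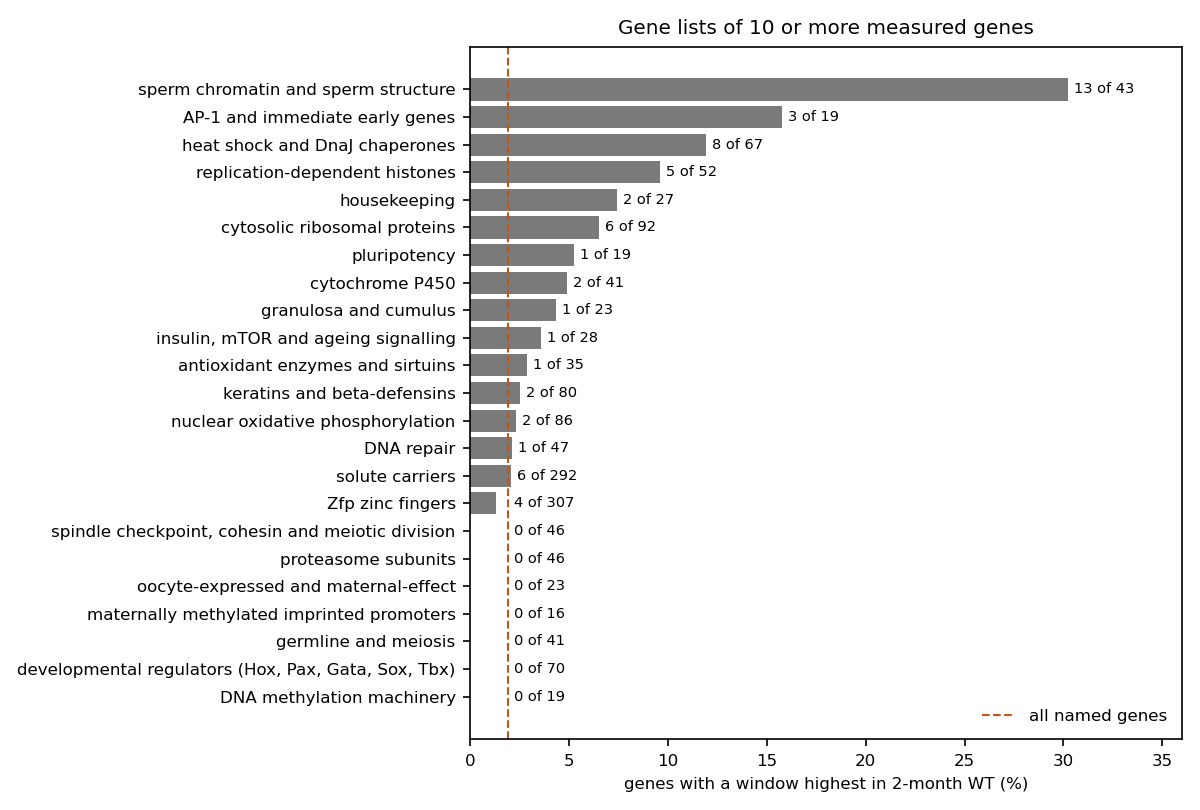
Share in percent of the measured genes of each list that held a 2-month-high window, with the count beside each bar and the dashed line at 1.9% for all named genes. Lists with fewer than 10 measured genes are not drawn. The dashed line takes in genes of all lengths. Of the lists drawn the sperm list is highest at 30.2%, followed by immediate early genes at 15.8%, chaperones at 11.9% and replication-dependent histones at 9.62%.

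Further gene groups were picked after the values had been seen and are given as values only. Of 7 insulin-like growth factor binding proteins, 5 held a 2-month-high window. At Igfbp7 (chr5:77407042-77409041) the level was 0.804% (1119 calls) in 11-month WT, 2.09% (191 calls) in Tet2KO and 38.5% (794 calls) in 2-month WT. The Igfbp4 window (chr11:99040244-99042243) showed 1.56% (835 calls) in 11-month WT, 0.763% (262 calls) in Tet2KO and 36.4% (467 calls) in 2-month WT. Igfbp5 (chr1:72873885-72875884) had 0.348% (287 calls) in 11-month WT, 5.13% (39 calls) in Tet2KO and 39.4% (226 calls) in 2-month WT. The same 3 promoters were at or under 5.13% in both other groups. Timp2 and Timp3, inhibitors of metalloproteinases, gave 2 of 4 genes. At Timp2 (chr11:118354507-118356506) the level was 2.58% (427 calls) in 11-month WT, 0 of 100 calls (up to 3.00%) in Tet2KO and 46.4% (343 calls) in 2-month WT. Vimentin, the intermediate filament protein of mesenchymal cells, was of the same kind. The Vim window (chr2:13573281-13575280) showed 0.602% (664 calls) in 11-month WT, 2.48% (161 calls) in Tet2KO and 44.1% (681 calls) in 2-month WT.

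Abundantly expressed housekeeping-type genes were picked in the same way. Fth1 (chr19:9981703-9983702) had 1.62% (801 calls) in 11-month WT, 1.32% (151 calls) in Tet2KO and 57.7% (1157 calls) in 2-month WT. Fth1 encodes the ferritin heavy chain. At Tmsb10 (chr6:72957303-72959302) the level was 1.49% (471 calls) in 11-month WT, 0 of 147 calls (up to 2.04%) in Tet2KO and 45.9% (307 calls) in 2-month WT. Tmsb10 encodes an actin-binding thymosin. The H3f3b window (chr11:116023505-116025504) showed 2.42% (908 calls) in 11-month WT, 1.09% (183 calls) in Tet2KO and 37.8% (465 calls) in 2-month WT. H3f3b encodes the replacement histone H3.3. H2-K1 (chr17:33999258-34001257) had 2.00% (802 calls) in 11-month WT, 2.14% (187 calls) in Tet2KO and 35.5% (1019 calls) in 2-month WT. H2-K1 is a classical MHC class I gene, of a family with near-identical copies.

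Testis-expressed genes outside the sperm list, again chosen after their values were seen, were Spem1, Kif2b, Aldoart2 and Hmgb4. At Spem1 (chr11:69821181-69823180) the level was 0 of 46 calls (up to 6.52%) in 11-month WT, 0 of 55 calls (up to 5.45%) in Tet2KO and 42.7% (82 calls) in 2-month WT. The Kif2b window (chr11:91576559-91578558) showed 2.17% (276 calls) in 11-month WT, 1.72% (58 calls) in Tet2KO and 39.5% (172 calls) in 2-month WT. Aldoart2 (chr12:55564239-55566238) had 2.27% (220 calls) in 11-month WT, 1.55% (129 calls) in Tet2KO and 39.5% (258 calls) in 2-month WT. These 3 promoters resembled one another in level in each group. At Hmgb4 (chr4:128259958-128261957) the level was 6.06% (33 calls) in 11-month WT, 0 of 39 calls (up to 7.69%) in Tet2KO and 45.7% (70 calls) in 2-month WT.

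At Dnm3, Prex2 and Bace1 a high level in 2-month WT went with fewer calls there than in 11-month WT. The Dnm3 window (chr1:162477035-162479034) showed 4.70% (383 calls) in 11-month WT, 1.39% (72 calls) in Tet2KO and 87.1% (31 calls) in 2-month WT. Dnm3 encodes a dynamin of neurons and testis. Prex2 (chr1:10992465-10994464) had 0.861% (581 calls) in 11-month WT, 2.30% (87 calls) in Tet2KO and 76.0% (100 calls) in 2-month WT. Prex2 encodes an exchange factor for Rac. At Bace1 (chr9:45837580-45839579) the level was 19.13% (366 calls) in 11-month WT, 0.943% (106 calls) in Tet2KO and 94.1% (51 calls) in 2-month WT. Bace1 is the beta-secretase. At these 3 genes the 2-month WT pool had fewer calls per position than its depth elsewhere, with a call ratio, defined below, of 0.344 for Dnm3, 0.389 for Prex2 and 0.478 for Bace1.

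Insr and Rap1gap2 were already partly methylated in at least 1 other group. The Insr window (chr8:3278618-3280617) showed 14.3% (642 calls) in 11-month WT, 43.4% (113 calls) in Tet2KO and 94.9% (98 calls) in 2-month WT. Insr encodes the insulin receptor, and the other groups differed from each other there. Rap1gap2 (chr11:74589187-74591186) had 29.98% (537 calls) in 11-month WT, 33.6% (113 calls) in Tet2KO and 97.96% (98 calls) in 2-month WT. Rap1gap2 encodes a GTPase-activating protein for Rap1, and 2-month WT was close to full methylation. At Tgm6 (chr2:130122275-130124274) the level was 56.2% (48 calls) in 11-month WT, 55.6% (18 calls) in Tet2KO and 100% (19 calls) in 2-month WT. Tgm6 encodes a transglutaminase. The Dck window (chr5:88763996-88765995) showed 60.4% (197 calls) in 11-month WT, 59.0% (83 calls) in Tet2KO and 96.9% (98 calls) in 2-month WT. Dck encodes deoxycytidine kinase.

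The 2-month-high windows with the most calls in the least-read group had modest gaps. Hnrnpa0 (chr13:58127557-58129556) had 1.28% (2652 calls) in 11-month WT, 1.66% (664 calls) in Tet2KO and 26.7% (1579 calls) in 2-month WT. At Rhob (chr12:8498986-8500985) the level was 1.71% (1523 calls) in 11-month WT, 1.27% (471 calls) in Tet2KO and 23.7% (1115 calls) in 2-month WT. The Pgp window (chr17:24469473-24471472) showed 1.64% (1340 calls) in 11-month WT, 1.52% (460 calls) in Tet2KO and 25.2% (1004 calls) in 2-month WT. Hnrnpa0 encodes an RNA-binding protein, Rhob a small GTPase and Pgp a phosphatase. In each of the 3 the 2-month WT pool was the only one above 1.71%. The Hnrnpa0 difference was -25.4 points (Newcombe 95% interval -27.7 to -23.3) for 11-month minus 2-month WT and -25.1 points (Newcombe 95% interval -27.4 to -22.6) for Tet2KO minus 2-month WT.

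Genes with a 2-month-high window were more often short than other genes. Their median annotated span was 7673 bp, beside 15568 bp for genes with a 2-month-low window and 18981 bp for all named genes. A span of at most 3000 bp was found for 101 of 331 genes (30.5%), beside 27 of 211 (12.8%) and 1758 of 17391 (10.1%). For genes read with at least 50 calls in each group the shares were 30.8%, 6.52% and 7.53%. The whole gene lay within its 2000 bp window for 33 of 331 genes (9.97%), beside 2.29% of all. Of the 331 genes 309 are protein-coding and 22 are long non-coding RNA genes.

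**Figure D4:**
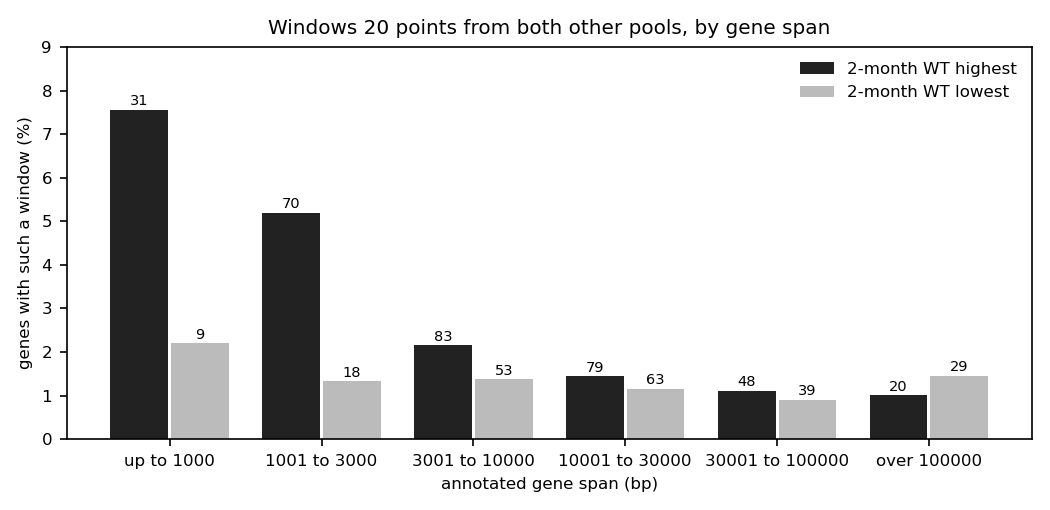
Share in percent of named genes in each class of annotated gene span that held a 2-month-high window or a 2-month-low window, with the number of genes above each bar. The share for 2-month-high windows is 7.56% up to 1000 bp, 5.19% above 1000 and up to 3000 bp and 1.00% over 100000 bp, while that of 2-month-low windows lies between 0.901% and 2.20% in the 6 classes.

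The 2-month-high windows also differed in sequence from the rest. In the 300 bases around the gene start, 285 promoters with a 2-month-high window held a median of 12 CpGs, beside 7 for promoters with a 2-month-low window and 17 for all promoters with a shared window. The promoters low in both other groups had a median of 14 CpGs, and those at 20% or more in both had 7. Searched on both strands, the TATA box letters TATAAA were present in 41 of the 285 promoters (14.4%), beside 12.4% of 2-month-low promoters, 8.68% of promoters with a shared window and 13.6% of all 32851 promoters of that length. The CRE letters TGACGTCA, which contain a CG, were present in 7 promoters (2.46%), beside 0% of 2-month-low promoters, 2.67% of promoters with a shared window and 1.79% of all. The GC box letters CCGCCC, which contain a CG as well, were present in 44.2%, beside 29.02% of 2-month-low promoters, 55.5% of promoters with a shared window and 35.7% of all. The letters CG themselves occur in 94.6% of all promoters and were missing from 12 of the 285.

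The number of covered CpGs separated 2-month-high from 2-month-low windows. Among windows with 80 or more covered positions in the best-covered group, 181 of 14804 were 2-month-high (1.22%) and 31 were 2-month-low (0.209%). Among windows with 5 to 29 positions the counts were 302 (2.67%) and 381 (3.37%). Windows with many CpGs were thus more often 2-month-high than 2-month-low, and those with few were not. The 181 densely covered windows had medians of 1.76% in 11-month WT, 1.79% in Tet2KO and 35.4% in 2-month WT. With at least 50 calls in each group, 369 of 24208 windows were 2-month-high (1.52%) and 89 were 2-month-low (0.368%). Below 50 calls in any group the shares were 2.45% and 3.17%.

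In a small set of windows 2-month WT had an excess of calls as well as a high level. A call ratio was computed as the calls per covered position in 2-month WT over the mean of the other groups, scaled so that the median window has 1. It had a median of 1.11 in 2-month-high windows and 1.18 in 2-month-low windows. Of the 118 windows with a ratio over 3, 38 were 2-month-high (32.2%) and 6 were 2-month-low (5.08%). Those 38 windows had medians of 1.36% in 11-month WT, 1.13% in Tet2KO and 82.3% in 2-month WT, at 13.6 calls per position. Prm2, Tnp2, Hspa1a, Hspa1b, Hspa1l, Gpx1, Rps29 and Svs5, which encodes a seminal vesicle secretion, are among them. Svs5 had 5.56% in 11-month WT, 5.26% in Tet2KO and 81.8% in 2-month WT. The part of extra copies of these sequences in the 2-month WT levels was not tested.

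The deposited fraction, the mean over covered positions of the methylated share at each, gave smaller gaps in these windows. In the 38 windows its median in 2-month WT was 53.3%, against the 82.3% of calls. The Prm2 fraction was 4.30% in 11-month WT, 0.962% in Tet2KO and 49.6% in 2-month WT. The Hspa1b fraction was 0.637%, 0% and 73.5% in the same order, so both sperm and heat shock windows kept the largest value in 2-month WT. Over all 769 windows the fraction had medians of 6.57%, 4.60% and 39.4%. By fraction 526 of the 769 windows (68.4%) still had a gap of 20 points or more, and 760 had a gap above 0. Chosen by the fraction from the start, 732 of 40537 windows would be 2-month-high (1.81%) and 565 2-month-low (1.39%).

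**Figure D5:**
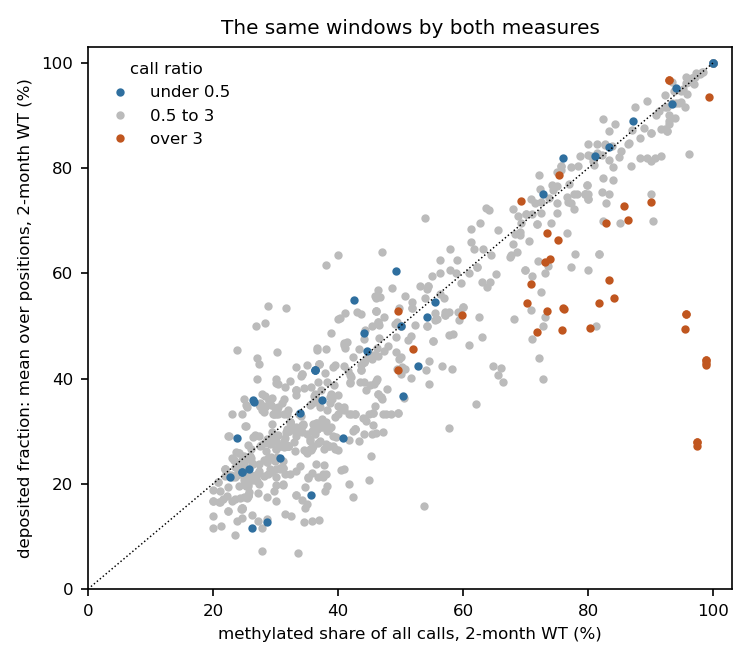
Deposited fraction against the methylated share of calls in 2-month WT, both in percent, with 1 point per 2-month-high window (769) and the dotted line at equality. Windows with a call ratio over 3 lie mostly below the line, with medians of 53.3% by fraction and 82.3% by calls, while the 35 windows with a ratio under 0.5 lie around it, with medians of 41.7% and 42.5%.

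The 2-month-high windows were mostly single. Of 529 chains built from windows at most 100 kb apart, 489 held 1 separate locus and 35 held 2. Besides the clusters on chromosomes 16 and 17, a chain at chr19:5801673-5895107 holds Malat1, a nuclear long non-coding RNA, and Tigd3. Malat1 (chr19:5801673-5803672) had 3.79% (264 calls) in 11-month WT, 0 of 69 calls (up to 4.35%) in Tet2KO and 42.7% (300 calls) in 2-month WT. A chain at chr19:8616996-8838466 holds Slc22a6, an organic anion transporter, Slc3a2, the heavy chain of amino acid transporters, Stx5a and Bscl2, and 8 of its 43 shared windows are 2-month-high. A chain at chr17:35837307-36033855 holds Tubb5, a tubulin, Atat1, a tubulin acetyltransferase, and H2-T23, and 4 of its 37 shared windows are 2-month-high. At Slc3a2 (chr19:8712880-8714879) the level was 1.28% (467 calls) in 11-month WT, 4.63% (108 calls) in Tet2KO and 49.5% (196 calls) in 2-month WT. Chromosome 19 had the highest share, with 42 of 1084 windows (3.87%), and the X chromosome the lowest, with 9 of 1251 (0.719%). Overlapping windows count separately here. Of the 42 windows, the Malat1 chain held 9 in 3 separate loci and the Slc22a6 chain held 8 in 4.

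Nearby promoters shared the pattern more often than windows in general, though most did not, and the same held for 2-month-low windows. Of 211 loci with a window within 10 kb that did not overlap, 19 had a nearest one that was itself 2-month-high (9.0%), beside 1.9% of all shared windows, and 2 had a 2-month-low one. Among 200 such 2-month-low loci, 26 had a 2-month-low nearest window (13%), beside 1.49% of all shared windows. In 100 of the 211 windows nearest to 2-month-high loci (47.4%) 2-month WT was above both other groups, beside 36.4% of all shared windows. These 211 nearest windows had medians of 4.39% in 11-month WT, 3.52% in Tet2KO and 8.33% in 2-month WT. At 22 genes with a 2-month-high window, 37 windows at other starts did not overlap it and were not 2-month-high themselves. Their medians were 6.67%, 5.71% and 4.62%, in the order 11-month WT, Tet2KO and 2-month WT. Because other starts that were 2-month-high had been left out, the low 2-month WT median is partly set by that choice. Some of the 37 windows also overlap one another.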

How the data were processed

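Low-input bisulfite libraries of oocytes were sequenced, per the labels' protocols. The submitters' processing notes name Trimmomatic, Bismark (version field 12.5) and the mm10 build, without roles; how PCR copies and reads with several matches were handled is not given in the sources. The 3 deposited tables pool all libraries of a group. For each window of 2000 bp they give deposited counts of methylated CpG calls, the deposited coverage, which is the number of all CpG calls, the number of covered positions, and a deposited fraction, which is the mean methylated share over covered positions. Windows with under 10 calls or 5 positions are not listed. The 2-month WT table ends in a broken line on the X chromosome, and windows beyond it were not analysed here.

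Levels were computed as 100 times methylated over total calls in windows listed in all 3 tables, without the mitochondrial genome and the Y chromosome. Levels have Wilson and differences Newcombe 95% intervals, which cover counting error only, since calls of the same read or of PCR copies are not independent. The limit for a count of 0 is 3 counts of the total. With 1 pooled value per group no test was run; a model fitted to values per library had been planned for the case that the tables held them.

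A window took the symbol of each gene whose annotated start lay within 200 bp of its centre, first by the strand-aware RefSeq promoter table (GRCm38.p6), then by either end of other protein-coding or long non-coding RNA genes, unless windows stood at both ends (34 genes left unnamed). This named 27124 of 40537 windows, for 17392 symbols. A gene counts as holding a 2-month-high window if any window named for it is one. Its printed level is that of its 2-month-high window with the most calls in the least-read group. Medians over gene lists take the window with the most calls in the least-read group from all windows of a gene. Of 331 genes with a 2-month-high window, 285 had a promoter sequence.

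Genes in the text are those with the 12 largest gaps by calls and by fraction (at least 20 calls in each group), up to 4 of each of 25 gene lists, the 4 highest and 4 lowest call ratios, the loci with most separate windows within 100 kb, the 3 windows on each side of the threshold and the 3 with most calls. Predicted genes, clones, microRNAs and olfactory and vomeronasal receptors were left out, and genes said to be picked after their values were seen stand outside the rule, as do Tnp1, Pgk2, Odf1, Spaca1, Spata3, Tekt5, Dnajb8, Hspa5, Tgm6 and Dck. The windows, lists and rule were chosen with earlier results of these data known. Scripts used Python 3.11.15, pandas 2.3.3, numpy 2.4.6, scipy 1.17.1 and matplotlib 3.10.9, and the window selection was tested on simulated data.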

Additional observations from a re-analysis of the deposited data

Results flagged for a closer look

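Windows of the mitochondrial genome, which were kept out of the comparisons, had methylated shares of calls of 34.3% in 11-month WT, 24.8% in Tet2KO and 27.4% in 2-month WT. They came up because their share lies far above 0, and 2-month WT lay between the other groups. Of 4704 windows listed for 11-month WT and 2-month WT but not for Tet2KO, 294 had a level at least 20 points higher in 2-month WT (6.25%). Of 169 windows listed for Tet2KO and 2-month WT but not for 11-month WT, 14 did (8.28%). These windows could not meet a rule that needs all 3 groups.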

How the results depend on the processing

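The count of 2-month-high windows, 769, became 2281 with 10 points as the threshold, 319 with 30 points and 369 with at least 50 calls in each group. The count of 2-month-low windows, 606, became 1401, 296 and 89 under the same settings and 350 with at least 20 calls. The median level of 2-month-high windows in 11-month WT was 2.51% with at least 50 calls, against 5.26%. Sperm genes with such a window numbered 5 with at least 50 calls, against 13, in a setting added after the data were seen. Under settings added in the same way they numbered 9 without call ratios over 3, and 11 with a gap of 20 points by fraction as well. The gap at Klhdc8b was 24.5 points by calls and -0.281 points by fraction, the only one of 71 named windows to change sign. By fraction the gap moved beyond its interval at 35 others, to a smaller value at 29, such as 2.73 points at Chmp2a, 3.95 at Zfp866 and 9.03 at Mt1. Under the other settings the counts of 2-month-high windows stayed within 1.5 times, with 732 by fraction, 582 with at least 20 calls, 636 with at least 10 positions, 731 without call ratios over 3 and 684 with both intervals excluding 0. Of the 769 windows, 537 had a smaller gap by fraction. The Tet2KO table, with 8610762 calls, is the shallowest and sets the precision of most windows. No paired analysis was possible because each group has 1 pooled value per window, and for the same reason no library could be left out.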
